A study of Mus musculus with 70 samples.

Results

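The genes described here were the 8 that code for the cAMP response element binding protein (CREB) family and its main coactivators: the transcription factors Creb1, Crem and Atf1, the CREB-regulated transcription coactivators Crtc1, Crtc2 and Crtc3, and the acetyltransferases Crebbp (CBP) and Ep300 (p300). They were found by symbol in an RNA-seq table of 24346 genes, and all 8 were present and passed the filter of a mean of at least 1 FPKM (fragments scaled by transcript length and library size), which 12994 genes passed. The table holds 70 dorsal hippocampus libraries from male C57BL/6J mice of 12 weeks, 10 in each of 7 groups, and 5 libraries of each group came from each of 2 harvest cohorts. All mice were housed singly. Home cage mice had neither wheel nor training. The other groups were given 3 min of training in a subthreshold object location memory (OLM) task, and tissue was taken 1 h later. Sedentary mice had no exercise. The exercise groups are named by days of initial voluntary running, days of sedentary delay and days of reactivating running, as 0-0-2 (running for 2 days only), 14-0-0 (no delay), 14-7-0 and 14-14-0 (delays of 7 and 14 days) and 14-7-2 (running again after the delay), and in groups that ran until training the wheels were taken out on the evening before. No group carried a transgene or a drug, and the labels name no pooling of animals.

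CREB, CREM and ATF1 are basic leucine zipper proteins that bind the cAMP response element (CRE) in gene promoters as dimers. Synaptic activity and cAMP lead to phosphorylation of CREB in its kinase-inducible domain, and phosphorylated CREB recruits CBP and p300, which acetylate histones. CRTC proteins are held in the cytoplasm by salt-inducible kinases and 14-3-3 proteins, and calcineurin releases them to the nucleus, where they bind the leucine zipper of CREB. In the hippocampus this system is known for the transcription that long-term memory needs. It is controlled largely at the level of protein modification and location, which messenger RNA does not show.

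The 8 genes lie on separate chromosomes with 1 exception, and all are protein-coding in the GENCODE annotation of GRCm38, the build named mm10 in the labels. Creb1 lies at chr1:64532645-64604548 and Atf1 at chr15:100227819-100261244, both on the plus strand. Crtc1 is at chr8:70382355-70439579 and Crtc3 at chr7:80586627-80688877, both on the minus strand, and Crtc2 is at chr3:90254163-90264125 on the plus strand. Crebbp lies at chr16:4081328-4213997 on the minus strand, and Ep300 at chr15:81585351-81652077 on the plus strand, on the chromosome that also holds Atf1. The values are sums over each whole gene, so the activating and repressing isoforms of Crem, among them the inducible repressor ICER, were not separated. Crebbp (10820 bases), Ep300 (9566) and Creb1 (8364) have long reference transcripts beside a median of 3258 bases over the genes tested. The transcripts of Crtc1, Crtc2 and Crtc3 are the richest of the 8 in GC, with 59.2%, 57.1% and 57.0%, and that of Creb1 the poorest, with 39.6%.

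The binding site of the family was looked for in RefSeq promoter sequences of GRCm38.p6, each from 250 bases before the transcript start to 50 bases after it. The full site is TGACGTCA, of 8 bases and the same on both strands, and its core is TGACG, read as CGTCA on the other strand, so that each full site also holds overlapping cores. A promoter was listed for 6 of the 8 genes, Creb1, Atf1, Crtc1, Crtc3, Crebbp and Ep300. Of these 6 promoters, 0 held the full site and 1, that of Atf1, held the core. Over all 32851 promoters 1.79% held the full site and 20.8% the core. Of 21 activity-induced genes known as CREB targets, 16 had a listed promoter, 5 held the full site (Dusp1, Btg2, Scg2, Pcsk1 and Sst) and 14 held the core in at least 1 promoter. Counted by promoter, as for all promoters, 21.7% of their 23 promoters held the full site and 65.2% the core. These shares describe letters in a window only. Windows of 30 bases are shown for the 5 full sites, for Fos and for Atf1, to set the site of the target genes beside the only match among the members. They are written in the direction of transcription, with the match in capitals.
Atf1, chr15:100227758-100227787, plus strand, 90 bases before the start: tgaccacgcggTGACGcagcacgccggcgc
Fos, chr12:85473813-85473842, plus strand, 66 bases before the start: gttccgcccagTGACGtaggaagtccatcc
Scg2, chr1:79440076-79440105, minus strand, 68 bases before the start: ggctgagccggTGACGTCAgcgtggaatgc
Btg2, chr1:134079303-134079332, minus strand, 166 bases before the start: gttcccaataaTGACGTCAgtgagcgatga
Dusp1, chr17:26508597-26508626, minus strand, 143 bases before the start: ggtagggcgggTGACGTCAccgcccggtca
Pcsk1, chr13:75089768-75089797, plus strand, 78 bases before the start: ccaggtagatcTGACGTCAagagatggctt
Sst, chr16:23890874-23890903, minus strand, 48 bases before the start: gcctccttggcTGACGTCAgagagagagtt

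Some libraries stood apart before any comparison. Sedentary replicate 6 held 2.45 FPKM of the hippocampal neuron gene Neurod6, against 78.4 to 269 in the other 69 libraries, and 17.1 FPKM of Slc17a7, against 367 to 870, so the tissue of this library goes against its label. Its summed FPKM over 10 hippocampal neuron markers was 95.4, where the other 6 groups ranged from 653 to 1242. It also held 28.4 FPKM of Crtc1, and the other 9 sedentary libraries 39.9 to 62.6. Replicate 4 of 14-7-0 had a relative depth of 0.036, estimated from genes of low value with sedentary replicate 0 set to 1, and the median of all libraries was 0.802. Choroid plexus epithelium markers (15 genes) had a median summed FPKM of 159 in sedentary (range 76.3 to 515), 2697 in 14-0-0 (94.8 to 18476) and 2519 in 14-14-0 (114 to 24965), and all 15 passed the test upward in both of these groups. In home cage 8 of the 15 and 4 of 7 meningeal markers passed it upward (median log2 differences 1.38 and 0.61), and in 0-0-2 5 of 10 oligodendrocyte markers passed it downward (median -0.44). The part of these cells in the differences of Crtc2, Atf1 and Per1 in those groups was not tested beyond the fits with the choroid plexus score. In bulk tissue, fewer cells of a type and less RNA per cell cannot be told apart.

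All 8 genes were expressed in all 70 libraries, and their levels per length differed by about an order of magnitude. Crtc1 was far above the others, with 25.6 to 66.1 FPKM and a median of 49.2, at the 86.7 percentile of the genes tested. Ep300 followed with a median of 10.4 FPKM (range 6.40 to 12.4), ahead of Creb1 with 8.92 (5.68 to 12.1), Crem with 7.72 (5.66 to 10.3) and Crtc2 with 7.08 (4.89 to 9.69). Crebbp had a median of 6.54 FPKM (4.27 to 9.39), Atf1 of 5.49 (4.05 to 7.87) and Crtc3 of 4.54 (3.07 to 5.78). Within each subfamily 1 gene led: Creb1 among the transcription factors, Crtc1 among the CRTC genes, and Ep300 over Crebbp. The lead of Ep300 over Crebbp was present in all 70 libraries and lay between 0.31 and 1.15 on the log2(FPKM + 0.1) scale, the scale used for all differences here.

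**Figure D1:**
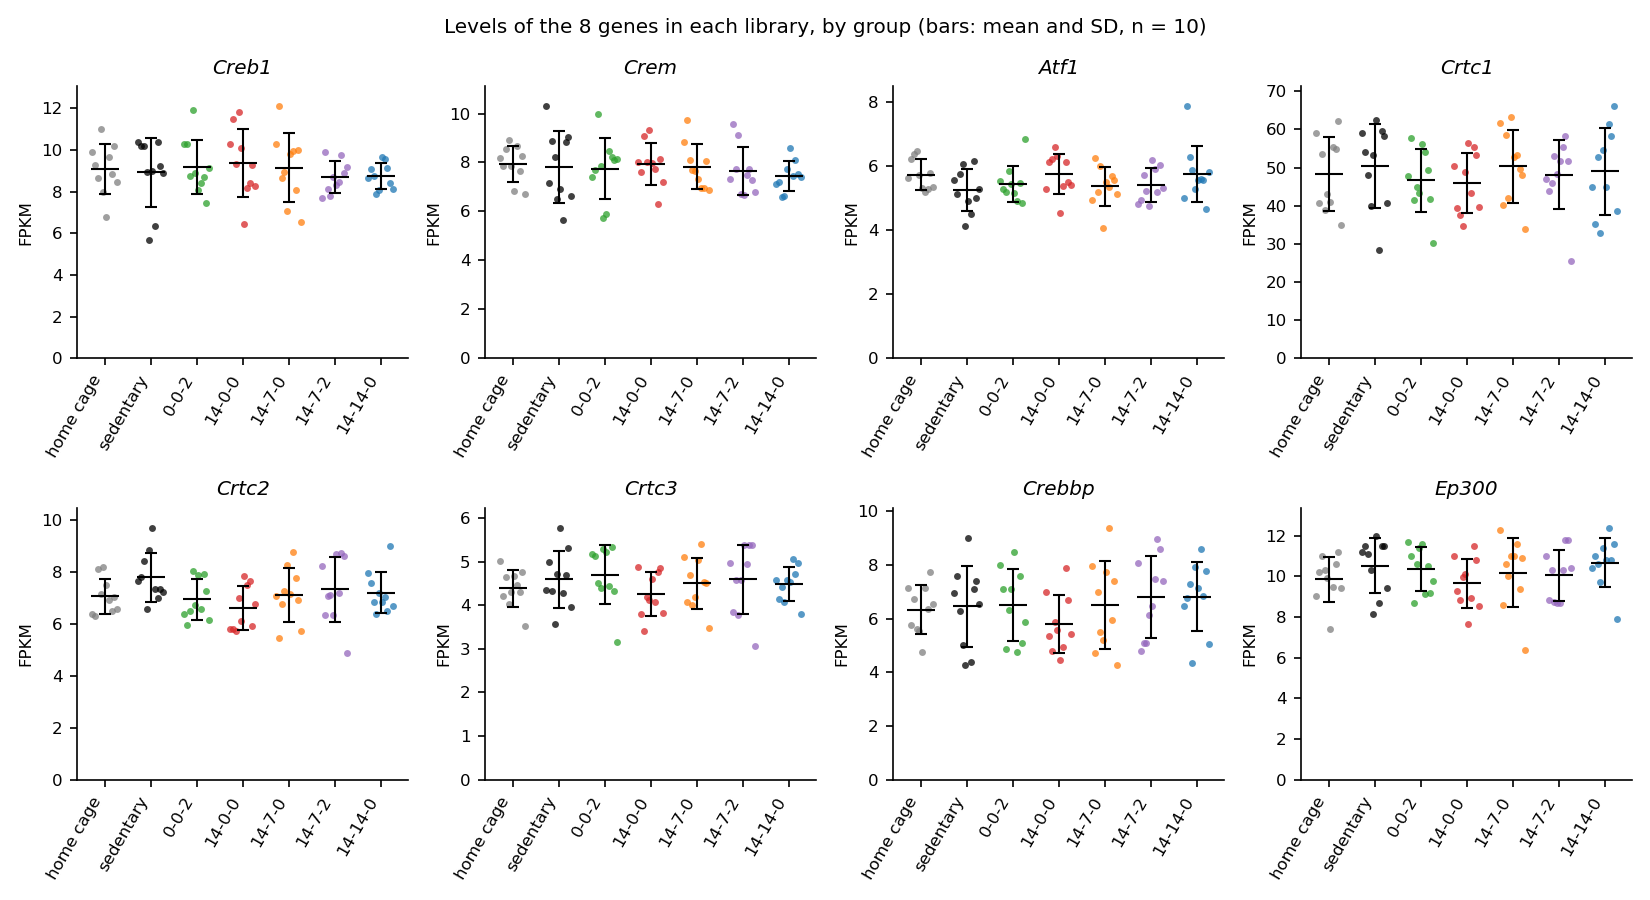
FPKM of the 8 genes (y axes from 0) in each library, by group (x axes), with points for libraries and bars for the mean and SD of 10 libraries. The groups overlap for every gene, and the sedentary mean of Crtc2, 7.77, is the highest of its 7 group means.

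When the 7 groups were put in order of their mean for each gene, no neighbouring groups differed beyond their spread. Neighbours in this order have the closest means by construction, so this test could hardly give calls and does not compare groups farther apart. Of the 48 neighbour pairs, 0 had an unadjusted p under 0.05 by a two-sided permutation test with 100000 resamples. The smallest was 0.223, for Crebbp between 14-0-0 and home cage (log2 difference 0.13, adjusted p = 0.996 over the 48). The whole range of the group means was 0.09 for Creb1 and for Crem, 0.13 for Atf1, Crtc1 and Crtc3 and 0.14 for Ep300, where the median over the genes tested was 0.18. Crebbp spanned 0.22 and Crtc2 0.23, the widest of the 8 and at the 68.1 percentile of the genes tested. The 14-0-0 group was lowest for Crtc1, Crtc2, Crtc3, Crebbp and Ep300, and highest for Creb1 and Atf1. A test of any difference among the 7 groups (limma's moderated F test) called 0 of the 8 genes at an unadjusted p under 0.05, where 7.63% of all genes tested were called and 29 genes had an adjusted p under 0.05. The smallest p among the 8 was that of Crtc2 (F = 1.47, p = 0.201).

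After 14 days of running with no delay, Crtc2 was the only 1 of the 8 genes to pass the test against sedentary. CRTC2 is known best for the cAMP response of liver and also acts in neurons. It measured 6.57 FPKM in the lowest, 7.49 in the median and 9.69 in the highest sedentary library, and 5.70, 6.43 and 7.85 in 14-0-0. The ranges overlap, and 8 of the 10 libraries of 14-0-0 lay below the sedentary median. The means were 7.77 ± 0.942 (SD, n = 10) and 6.60 ± 0.844 FPKM, a log2 difference of -0.23 (standard error 0.0793, 95% interval -0.40 to -0.07, limma's moderated test p = 0.00781, adjusted p = 0.345). With 1 call among 8 genes and 9.15% of all genes tested called in this comparison, the count is near the background. The difference was -0.36 within harvest cohort 1 (p = 0.00384) and -0.11 within cohort 2 (p = 0.384), where the call was lost, and the difference between cohorts had p = 0.108. With the choroid plexus score of each library as a covariate it was -0.33 (p = 0.00256), and it was -0.24 without sedentary replicate 6 (p = 0.00786).

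Crtc2 was also below sedentary in every other group. It measured 5.94, 6.66 and 8.02 FPKM in the lowest, median and highest library of 0-0-2, the group with 2 days of running only, and 6.29, 6.96 and 8.17 in home cage. In 0-0-2 the log2 difference was -0.16 (standard error 0.0749, 95% interval -0.32 to -0.01, p = 0.0424, adjusted p = 1), with 7 of 10 libraries below the sedentary median. This was 1 call among the 8 genes, where 2.37% of all genes tested were called. It rested on single libraries, since leaving out 1 of 20 libraries in turn gave p from 0.021 to 0.0892, and the call was lost for 11 of them. Sedentary replicates 0, 1, 2, 4 and 5 and 0-0-2 replicates 0, 1, 2, 4, 6 and 9 were these 11. The largest such shift came from sedentary replicate 5, the highest library of all for Crtc2, without which the difference was -0.13 (p = 0.0892). In home cage mice, which differ from sedentary mice by having had no training, the difference was -0.13 (95% interval -0.28 to 0.01, p = 0.0705). Here 0 of the 8 genes were called beside 2.30% of all genes tested. The other differences of Crtc2 from sedentary were -0.13 in 14-7-0 (p = 0.138), -0.10 in 14-7-2 (p = 0.322) and -0.11 in 14-14-0 (p = 0.147). All 6 comparisons share the same 10 sedentary libraries.

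**Figure D2:**
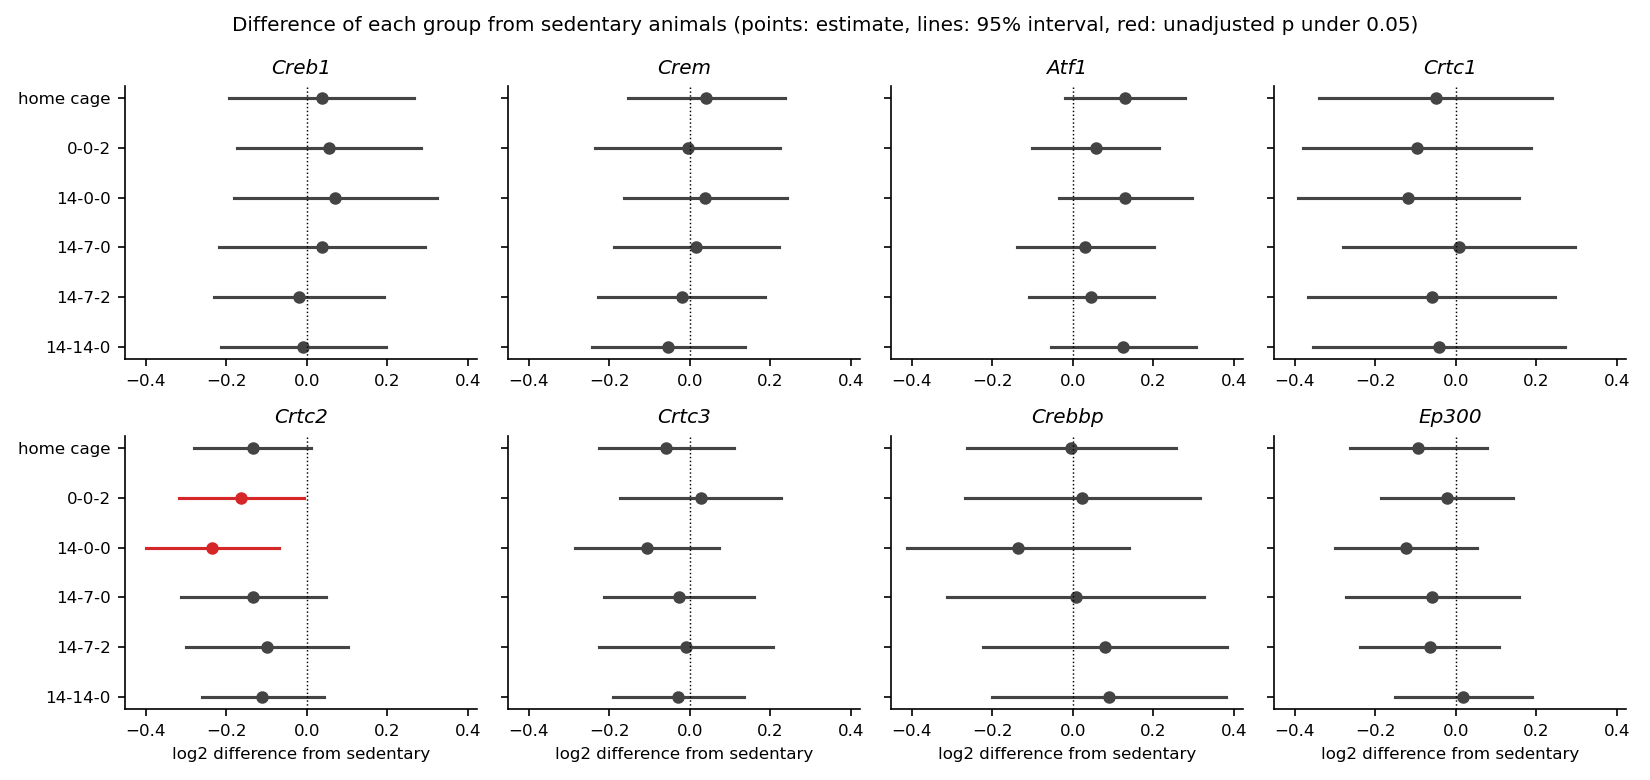
Difference of each group (y axes) from sedentary in log2(FPKM + 0.1) (x axes) for the 8 genes, with points for the estimate and lines for its 95% interval; red marks an unadjusted p under 0.05. Crtc2 in 14-0-0 (-0.23) and in 0-0-2 (-0.16) are the only red points, and all other intervals include 0.

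None of the 3 transcription factor genes was called in a comparison with sedentary. Creb1 measured 5.68, 9.11 and 10.4 FPKM in the lowest, median and highest sedentary library, 6.42, 9.29 and 11.8 in 14-0-0, and 7.68, 8.59 and 9.91 in 14-7-2. Its log2 difference from sedentary was 0.07 in 14-0-0 (95% interval -0.18 to 0.32, p = 0.563) and -0.02 in 14-7-2 (-0.23 to 0.19, p = 0.854). Crem, whose promoters give both activators and repressors of cAMP-responsive genes, measured 5.66, 7.69 and 10.3 FPKM in sedentary and 6.60, 7.42 and 8.57 in 14-14-0. Its differences from sedentary lay between -0.05 in 14-14-0 (p = 0.572) and 0.04 in home cage (p = 0.667). Atf1, a CREB paralogue that can pair with it, measured 4.12, 5.21 and 6.15 FPKM in sedentary, 4.54, 5.81 and 6.61 in 14-0-0, and 5.19, 5.68 and 6.47 in home cage. For Atf1 9 of 10 libraries of 14-0-0, and 9 of 10 of home cage, lay above the sedentary median. Neither difference passed the test, at 0.13 (95% interval -0.03 to 0.30, p = 0.113) in 14-0-0 and 0.13 (-0.02 to 0.28, p = 0.0822) in home cage. Scaling each library by its median ratio to the gene means gave 0.14 for Atf1 in home cage (p = 0.0479).

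The other CRTC genes had no call in any comparison with sedentary. CRTC1 is the main neuronal member, which moves from synapse to nucleus on activity. Crtc1 measured 28.4, 53.7 and 62.6 FPKM in the lowest, median and highest sedentary library, 34.7, 46.0 and 56.4 in 14-0-0, and 33.8, 51.1 and 63.3 in 14-7-0. The lowest sedentary value is that of replicate 6, and with it the log2 difference of 14-0-0 was -0.12 (standard error 0.132, p = 0.383). Without that library the sedentary mean was 52.9 ± 8.27 FPKM (SD, n = 9) in place of 50.4. The difference of 14-0-0 was then -0.21 (limma p = 0.0712). Crtc3 measured 3.56, 4.53 and 5.78 FPKM in sedentary and 3.41, 4.16 and 4.87 in 14-0-0, a log2 difference of -0.11 (95% interval -0.28 to 0.07, p = 0.227). In 14-7-2 Crtc3 differed from sedentary by -0.01 (-0.23 to 0.21, p = 0.925).

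CBP and p300 are large paralogous acetyltransferases that serve many transcription factors besides CREB. Crebbp measured 4.28, 6.76 and 9.02 FPKM in the lowest, median and highest sedentary library and 4.46, 5.51 and 7.89 in 14-0-0. Its log2 difference was -0.14 in 14-0-0 (standard error 0.132, p = 0.321) and 0.08 in 14-7-2 (-0.22 to 0.38, p = 0.585). Ep300 measured 8.14, 11.1 and 12 FPKM in sedentary and 7.65, 9.63 and 11.5 in 14-0-0, where 9 of 10 libraries lay below the sedentary median. The difference was -0.12 (95% interval -0.30 to 0.05, p = 0.158), and with the length balance of the library (below) as a covariate, added after the data were seen, it was -0.13 (p = 0.0267). Neither gene was called in a comparison with sedentary as fitted.

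Counted over the 8 genes, 0 were called in 14-7-0 against sedentary, beside 3.26% of all genes tested. In 14-7-2, the group in which 2 days of running followed the delay, 0 of 8 were called beside 4.39%, and in 14-14-0 0 of 8 beside 4.95%. The median log2 difference of the 8 was -0.11 in 14-0-0, where that of all genes was 0.01, and between -0.03 and 0.01 in the other comparisons with sedentary. The direct comparisons between exercise groups gave 0 calls each. Beside this, 5.39% of all genes were called in 14-7-2 against 14-7-0, which differ by the reactivating run, 2.43% in 14-7-2 against 0-0-2, which differ by the earlier running, and 5.63% in 14-0-0 against 14-7-0. Over all 72 differences of a gene in a comparison, the estimates lay between -0.23 and 0.13 and the 95% intervals between -0.42 and 0.38, that is, between 0.746-fold and 1.3-fold. No gene in the table had an adjusted p under 0.05 in any of the 9 pairwise comparisons, so 0 of the 8 did. The regularized formula of the study's methods called Crtc2 in 14-0-0 (p = 0.0351 on FPKM and 0.0261 on log2 values) and 0 of the 8 genes in every other comparison.

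The harvest cohorts were compared over the 7 groups. Cohort 2 differed from cohort 1 by -0.10 in Creb1 (standard error 0.0502, p = 0.0564), -0.09 in Crem (p = 0.0349) and 0.13 in Crebbp (p = 0.0731), and 0 of the 8 had an adjusted p under 0.05, beside 0.585% of all genes. The group effects were not shown to differ between the cohorts in any of 48 tests of this interaction, where the smallest p was 0.108. Of all genes, 2.79% were called for the interaction in 14-0-0, 0.362% in 14-7-0 and 2.42% in 14-7-2. The share was 2.03% for 14-14-0, 1.48% for 0-0-2 and 0.423% for home cage mice. Without sedentary replicate 6, which belongs to cohort 2, 1 interaction passed, that of Creb1 in 14-0-0 (cohort 2 minus cohort 1 -0.46, p = 0.0368, adjusted p = 0.663).

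Among the 8 genes, the replicate number in the labels went with the spread of Crtc3 and Crtc1. Libraries with the number 9 were low in Crtc1 in all 7 groups, at 25.6 to 40.8 FPKM with a median of 35.0, and medians of the other numbers lay between 39.9 and 55.3. Against all other libraries of the same groups, number 9 was lower by 0.51 on the log2 scale in Crtc1 (standard error 0.104) and by 0.37 in Crtc3 (standard error 0.0628). Crtc3 measured 3.07 to 3.96 FPKM in these 7 libraries, and all 7 lay below their group mean for both genes. The replicate number accounted for 62.4% of the within-group spread of Crtc3 and 47.1% of that of Crtc1, and the median over the genes tested was 24.2%. For the other members the share lay between 21.6% (Crem) and 28.9% (Crtc2). In a test of the number over the 7 groups, Crtc3 (adjusted p = 5.85e-07) and Crtc1 (adjusted p = 0.000174) passed, 2 of the 8 genes, beside 36.7% of all genes. The other members did not pass, with an adjusted p of at least 0.0541 (Crtc2) in this test. The labels do not say what a number marks beyond its harvest cohort. The GC balance, the median log2 deviation of the genes in the top decile of transcript GC minus that in the bottom decile, was low in these libraries. It lay between -1.08 and -0.252 in the libraries numbered 9, and its median over all libraries was 0.023. Its median was -0.286 for number 1 (range -0.636 to 0.0777), -0.246 for number 3 (-0.739 to 0.363) and -0.274 for number 9. The mean deviation of Crtc1 from its group means was -0.11 in number 1, -0.23 in number 3 and -0.46 in number 9. For Crtc3 these were -0.06, -0.16 and -0.33. The score of hippocampal neuron markers, their mean log2 deviation, was negative in all 7 libraries numbered 9 (-0.27 to -0.105, median of all libraries 0.0844). The scores of inhibitory neurons, microglia and astrocytes were also negative in all 7, that of astrocytes at -0.248 to -0.0755. The choroid plexus score was between 2.61 and 4.33 in 4 of the 7 and its median over all libraries was -0.81. The part of these measures in the low Crtc1 and Crtc3 values was not tested.

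**Figure D3:**
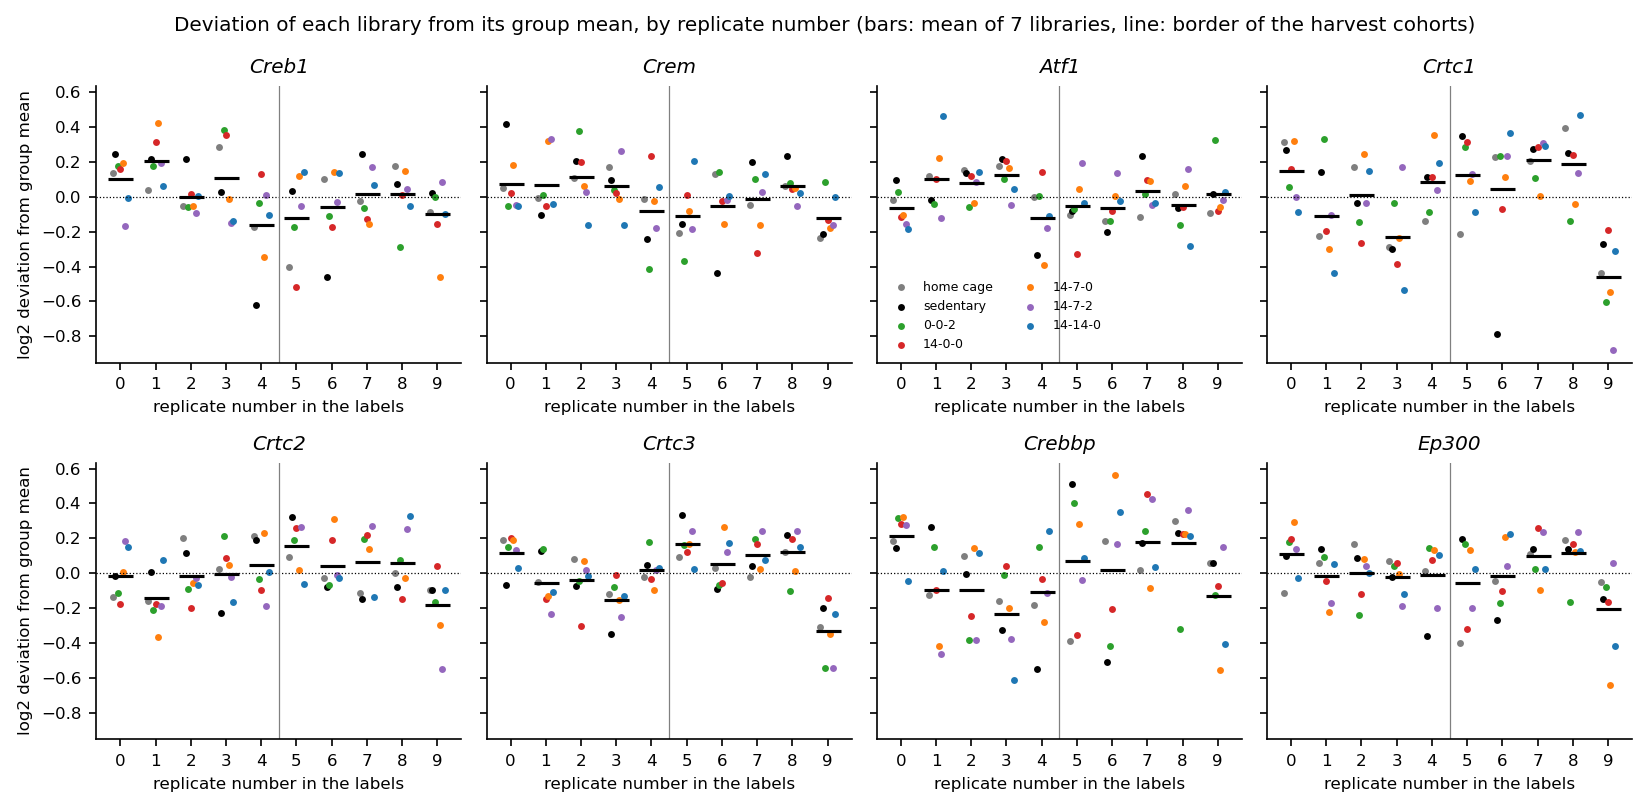
Deviation of each library from its group mean in log2(FPKM + 0.1) (y axes) by replicate number in the labels (x axes) for the 8 genes, coloured by group, with bars for the mean of 7 libraries and a line between the harvest cohorts. All 7 libraries numbered 9 lie below 0 for Crtc1 and for Crtc3, with mean deviations of -0.46 and -0.33.

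Across the 70 libraries Crebbp, Ep300, Crtc1 and Crtc3 rose and fell together. Crtc2 followed them less closely, with rho from 0.30 (Crebbp) to 0.44 (Crtc3). Creb1 had a rho of 0.335 with Crebbp and 0.384 with Ep300. Crebbp and Ep300 had Pearson's r = 0.81 and Spearman's rho = 0.84 (permutation p = 1e-05 for each, the smallest that 100000 resamples can give, adjusted p = 6e-05 and 5e-05 over the 28 pairs of the 8 genes). Without the 2 libraries farthest from the median of Crebbp r was 0.79, and rho was 0.77 within cohort 1 and 0.92 within cohort 2. By rho, Ep300 was 8th of 12993 genes in likeness to Crebbp. Crtc1 and Crtc3 followed, with r = 0.73 and rho = 0.69 (permutation p = 1e-05 for each), r = 0.72 without the 2 libraries farthest from the median of Crtc1, and rho = 0.58 and 0.71 within the cohorts. Crtc3 and Crebbp had r = 0.61 and rho = 0.69, with rho = 0.71 and 0.73 within the cohorts. Of the 28 pairs, 16 had an adjusted permutation p of rho under 0.05, 14 of them positive. These tests are against a rho of 0, and the share of all gene pairs that pass was not taken. Among 12993 genes, Crtc3 was 95th in likeness to Crebbp and 581st to Crtc1, and Crebbp was 1809th to Crtc2. The 2 negative pairs were Creb1 with Crtc2 (rho = -0.30) and Atf1 with Crtc1 (rho = -0.32), and the second was -0.57 in cohort 1 and -0.05 in cohort 2. These correlations are across libraries that share depth, base composition and cell content, which enter every gene of a library.

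Library measures of length and GC content were set beside the genes. The length balance, the deviation of the longest decile of transcripts minus that of the shortest, had a rho over the 70 libraries of 0.74 with Crebbp, 0.72 with Ep300 and 0.59 with Creb1, which are the 3 longest transcripts of the 8. These lie at the 98.8, 98.4 and 94.5 percentiles of the genes tested. The percentiles are among genes of all lengths, and the members were not left out of the deciles that define the balance. The GC balance had a rho of 0.67 with Crtc1, 0.52 with Crtc3 and 0.43 with Crtc2, the 3 richest in GC. It was -0.44 with Creb1, the poorest, -0.09 with Crem, the next (43.2% GC), and -0.46 with Atf1 (45.2%), so the order of GC content was not kept among these. The score of hippocampal neuron markers had a rho of 0.76 with Crtc1 (99.7 percentile), 0.70 with Ep300, 0.65 with Crebbp and 0.64 with Crtc3. That of choroid plexus markers had a rho of -0.48 with Crtc1 (1.9 percentile) and of 0.25 with Atf1. These values are descriptions, and the part of each measure in the pairs of genes above was not tested.

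**Figure D4:**
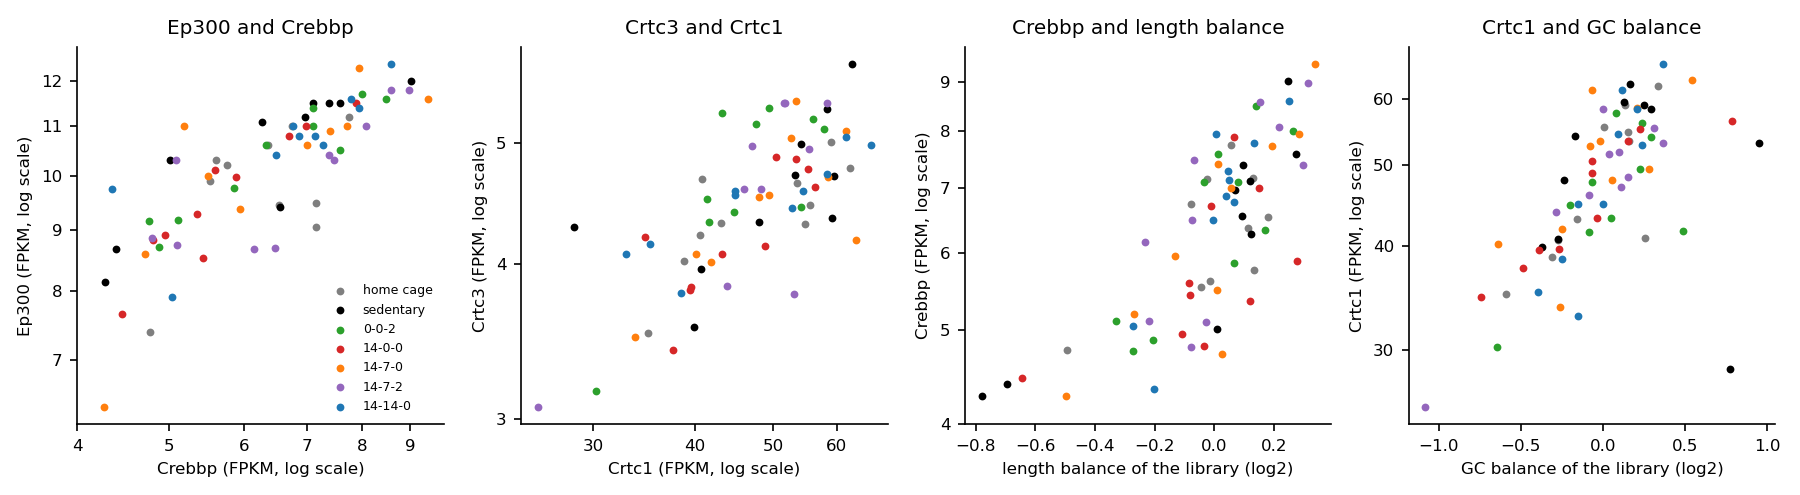
Pairs of values in the 70 libraries, coloured by group: Ep300 against Crebbp, Crtc3 against Crtc1, Crebbp against the length balance and Crtc1 against the GC balance (FPKM axes are logarithmic, balances are in log2). The points of all groups lie along common bands, with rho of 0.84, 0.69, 0.74 and 0.67, and sedentary replicate 6 lies off the last band at 28.4 FPKM of Crtc1.

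Likeness to each of the 8 was taken as rho over the 70 libraries, among all genes tested. Crebbp was nearest to the chromatin remodellers Srcap (0.87) and Ep400 (0.86) and to the methylcytosine dioxygenase Tet3 (0.86), and Ep300 to Ep400 (0.89), Helz (0.87) and Atf7ip (0.86). Crtc1 was nearest to Mast3 (0.94), Phyhip (0.94) and Gse1 (0.93). Crtc3 was nearest to Zer1 (0.83), Adgrl1 (0.82) and the lipoprotein receptor Lrp1 (0.81), and Crtc2 to Clasrp (0.79), Zgpat (0.77) and E4f1 (0.76). Creb1 was nearest to Cggbp1 (0.90), Zfp148 (0.87) and Zfp729a (0.85), and Crem to 2900052N01Rik (0.76), Serpini1 (0.69) and Rab27b (0.68). The weakest likeness was that of Atf1, to Yipf4 (0.63), Aebp2 (0.63) and Pigf (0.62).

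Genes upstream of CREB were counted in lists, beside the 2.30% to 9.15% of all genes tested that were called in the comparisons with sedentary. Of 19 kinases that act on CREB, the comparisons with sedentary called only 1, Camk1, which fell in 14-7-0 (log2 difference -0.28, p = 0.0445). Camk4, a nuclear CREB kinase, was higher in 14-7-2 than in 14-7-0 (0.25, p = 0.0239), and Camkk1, which activates it, was lower in 14-0-0 than in 14-7-0 (-0.19, p = 0.00167). Camkk1 (0.18, p = 0.0431) and Camk1d (0.23, p = 0.015) were higher in 14-7-2 than in 0-0-2. Of 16 genes of cAMP production and breakdown, the adenylate cyclase Adcy3 fell in 14-0-0 (-0.20, p = 0.021) and in 14-14-0 (-0.16, p = 0.0362), and Adcy8 rose in 14-0-0 (0.20, p = 0.0484) and in 0-0-2 (0.19, p = 0.0239). Of 14 regulators of the CRTC proteins, the salt-inducible kinase gene Sik1, itself a CREB target, fell in 14-7-2 (-0.55, p = 0.0474), and the 14-3-3 gene Ywhab rose there (0.16, p = 0.0408). Sik1 was low, at 1.29, 2.17 and 8.9 FPKM in the lowest, median and highest sedentary library and 1.35, 1.49 and 2.06 in 14-7-2. Another 14-3-3 gene, Ywhah, was higher in 14-7-2 than in 14-7-0 (0.25, p = 0.0342) and than in 0-0-2 (0.18, p = 0.0123). Among 6 CREB phosphatase genes 1 was called, Ppp1ca in 14-14-0 (-0.12, p = 0.0358).

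Relatives and partners of the 8 genes were counted in the same way. Of 12 other ATF and CREB genes tested, Atf4, the effector of the integrated stress response, fell in 14-0-0 (-0.28, p = 0.00539) and in 14-7-2 (-0.20, p = 0.0231). It measured 69.3, 88.7 and 115 FPKM in the lowest, median and highest sedentary library, 59.2, 75.1 and 84.7 in 14-0-0, and 64.5, 78.8 and 85.3 in 14-7-2. Creb3l2 (-0.22, p = 0.0472) and Crebrf (-0.18, p = 0.0134), of the same list, were lower in 14-7-2 than in 14-7-0. Of 10 other histone acetyltransferases, Kat2a fell in 14-7-0 (-0.15, p = 0.0225) and Kat8 in 14-7-2 (-0.15, p = 0.0352). Of 8 partners of CBP and p300, Cited2, which competes for their CH1 domain, fell in 14-0-0 (-0.36, p = 0.0196). The adjusted p over all genes was at least 0.324 for each gene named in these lists.

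Several activity-induced target genes of CREB, among them Egr1 and Fos, were called lower in the exercise groups than in sedentary. Of the 21 targets tested, 6 fell and 1 rose in 14-0-0, with a median log2 difference of -0.25. In 14-7-2 7 fell and 0 rose, with a median of -0.24. In the fit as reported, 3 fell in 14-7-0 (median -0.13) and 4 in 14-14-0 (median -0.19), while 2 fell and 1 rose in 0-0-2 (median -0.19). Home cage mice had 1 target lower and 1 higher (median -0.16). The order of these counts is not fixed, since with the replicate number as a block 9 fell in 14-0-0, 7 in 14-7-2, 7 in 14-14-0 and 6 in 14-7-0. The median difference of all genes lay between -0.01 and 0.01 in each of these comparisons, and the background shares are those given above. The list was chosen with earlier results of these data known, and all counts share the sedentary libraries.

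Egr1, an immediate early transcription factor, measured 45.9, 69.4 and 99.7 FPKM in the lowest, median and highest sedentary library, 32.1, 47.0 and 60.7 in 14-0-0, and 33.6, 42.4 and 54.2 in 14-7-2. The log2 differences were -0.63 (standard error 0.154, p = 0.000531, adjusted p = 0.279) and -0.67 (standard error 0.144, p = 0.000139, adjusted p = 0.847). Egr1 was also lower in 14-7-0 (-0.37, p = 0.0109), 14-14-0 (-0.47, p = 0.00267) and 0-0-2 (-0.435, p = 0.0219). Fos measured 3.22, 6.10 and 16.3 FPKM in sedentary and 2.22, 3.32 and 5.68 in 14-7-2, a difference of -1.04 (standard error 0.274, p = 0.00105). It also fell in 14-0-0 (-0.85, p = 0.00912) and in 14-14-0 (-0.91, p = 0.00263). The same held in 14-7-0 (-0.74, p = 0.0109) and in 0-0-2 (-0.69, p = 0.0246). The clock gene Per1 fell in 14-0-0 (-0.45, p = 0.00517) and in 14-7-2 (-0.37, p = 0.0237). Without training, it fell in home cage (-0.45, p = 0.0112). Scg2, a secretogranin gene whose promoter holds the full site, rose from 76.8, 97.4 and 133 FPKM in sedentary to 95.9, 116 and 138 in 14-0-0 (0.22, standard error 0.0797, p = 0.0133). Scg2 was also higher in 0-0-2 than in sedentary (0.18, p = 0.0322). Of the other genes with the full site, Btg2 rose in home cage (0.31, p = 0.0227), and Dusp1 fell in 14-0-0 (-0.32, p = 0.0466) and in 14-7-2 (-0.32, p = 0.0446). Pcsk1 and Sst, which also hold it, were called in no comparison. In 14-7-2 against 14-7-0, Egr1 (-0.30, p = 0.00252) and Nr4a2 (-0.36, p = 0.0091) fell. Egr1 fell also in 14-0-0 against 14-7-0 (-0.26, p = 0.0203), and Bdnf rose there (0.25, p = 0.018). In a joint fit of the 7 groups 0 targets were called lower in either of these comparisons, in place of 3 and 1, and with the choroid plexus score Egr1 lost its call in the second (-0.18, p = 0.152). Of 10 oligodendrocyte markers, 6 were called lower in both, and of 6 inhibitory neuron markers 3 in the first; the part of these cells was not tested.

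**Figure D5:**
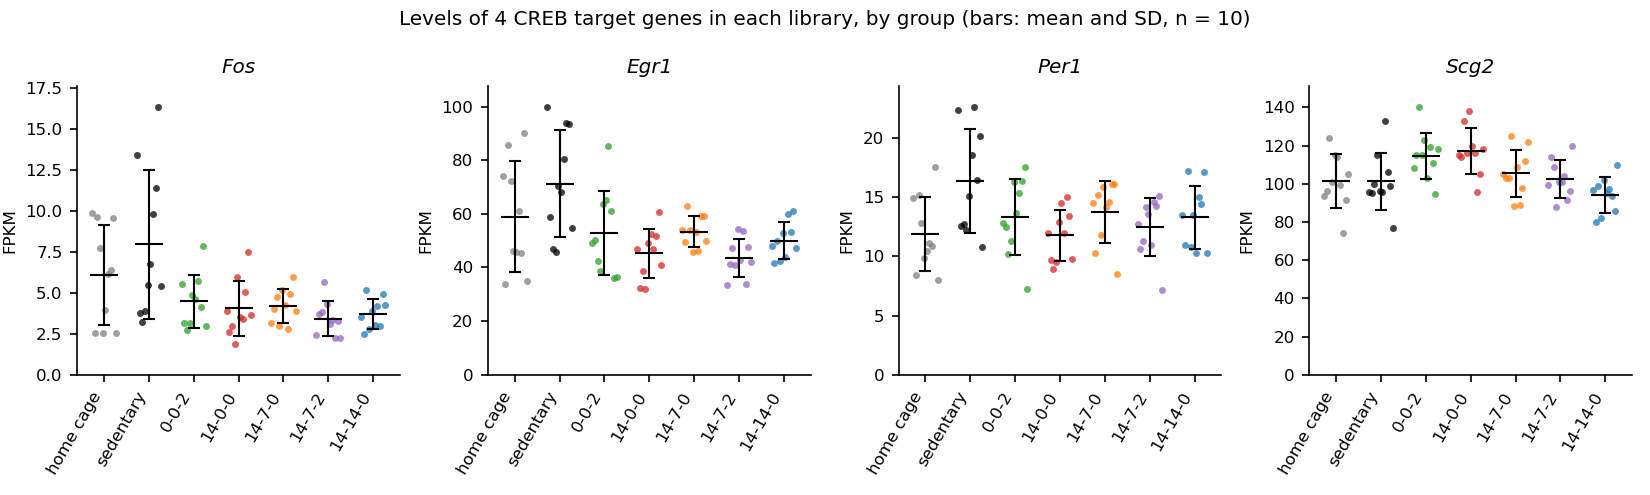
FPKM of the target genes Fos, Egr1, Per1 and Scg2 (y axes from 0) in each library, by group (x axes), with points for libraries and bars for the mean and SD of 10 libraries. The spread of Fos is widest in sedentary, from 3.22 to 16.3, and the highest library of 14-7-2 for Egr1, 54.2, lies below the sedentary median of 69.4.

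The counts of target genes that fell changed when marker scores were added to the fit. With the choroid plexus score of each library as a covariate, 2 targets fell in 14-0-0, 5 in 14-7-2 and 2 in 14-7-0, and 0 fell in the remaining comparisons with sedentary. The differences that lost their call stayed negative: in 0-0-2 Fos was -0.60 (p = 0.0528) and Egr1 -0.36 (p = 0.0521), and in 14-14-0 Fos was -0.58 (p = 0.0608) and Egr1 -0.32 (p = 0.0533). Egr1 kept its call in 14-0-0 (-0.47, p = 0.0202) and in 14-7-2 (-0.65, p = 0.000411), and Fos lost it in 14-0-0 (-0.53, p = 0.151) and kept it in 14-7-2 (-0.94, p = 0.00337). Leaving out sedentary replicate 6 gave counts of 7 for 14-0-0, 7 for 14-7-2, 3 for 14-7-0, 5 for 14-14-0, 3 for 0-0-2 and 2 for home cage. Within cohort 1 alone they were 3 in 14-0-0 and 1 in 14-7-2, and within cohort 2 alone 3 and 7. The part of the choroid plexus in these differences was not tested beyond the covariate.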

How the data were processed

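The authors made the FPKM values from single 50 bp reads with ELAND v2e and Bowtie, keeping uniquely aligned reads with at most 2 mismatches, and ran the Tuxedo protocol, whose Cuffnorm step and build mm10 are named in the submitters' processing notes. FPKM divide fragments by transcript length and library size. The annotation used is not given in the sources used here. The deposited table holds no counts, so intervals for counting error could not be made, and the read totals that the study lists per library were not used here.

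The log2 values were taken with a pseudocount of 0.1 FPKM, and the 12994 genes whose mean over the 70 libraries reached 1 FPKM were tested. Pairs of groups (20 libraries) were compared by limma 3.58.1 in R 4.3.3, two-sided with a trend and no covariate. As in the study's methods, a call needed p under 0.05 before adjustment. Adjusted values are Benjamini-Hochberg values over all genes. The 8 genes are fixed by symbol. Of each pathway list the calls against sedentary are given, and at most the 2 genes of smallest p in a comparison are named. Calls of the lists between exercise groups are given in part. Values of a gene so named may be given in other comparisons too. Dusp1, Pcsk1 and Sst fall outside this and were chosen after values and promoter letters were seen. The genes and lists were chosen with earlier results of these data known. Where libraries of a group are not from separate mice, p-values measure only the spread between them. Transcript length, GC and coordinates came from GENCODE for GRCm38, and 92.4% of the genes tested had a coding transcript there. RefSeq promoters were GRCm38.p6. Alternatives were 2 scalings, 2 filters, another pseudocount, covariates, blocks, each cohort, a regularized test rewritten from its formula and each library left out. Figures used matplotlib 3.10.9.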

Additional observations from a re-analysis of the deposited data

Results flagged for a closer look

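In 77 groups of 10 libraries (the 8 genes and 3 library measures in 7 groups), the highest and lowest library were compared with the nearest of the others by Dixon's criterion at 95%, and 7 had a library that lay apart, where chance gives about 1 in 20, or 3.85. For the genes, the library numbered 9 was the highest of 0-0-2 for Atf1, at 6.83 FPKM with the next at 5.83. It was the lowest of 14-7-2 for Crtc1, at 25.6 FPKM with the next at 43.9. It was also the lowest of 0-0-2 for Crtc3, at 3.16 FPKM with the next at 4.32. Replicate 1 was the highest of 14-14-0 for Atf1, at 7.87 FPKM with the next at 6.28. Among the library measures, the length balance was lowest in replicate 5 both of home cage, at -0.492, and of 14-0-0, at -0.644. The GC balance of replicate 9 of 14-7-2 was -1.08 with the next at -0.286. This is the library that holds the lowest Crtc1, Crtc2 and Crtc3 values of all 70. Of 48 tests of whether a group effect differed between the harvest cohorts, 0 had an unadjusted p under 0.05 with all libraries.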

How the results depend on the processing

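Of the counts of called genes among the 8, those of 14-7-0 against sedentary, of 14-7-2 against 14-7-0, of 14-0-0 against 14-7-0, of any difference among the groups and of neighbouring groups in the order of levels did not move under the alternatives run. Against sedentary the count in 14-0-0 was 1 as reported, 0 in cohort 2 alone and 3 with the length balance as a covariate (Crtc2, Atf1 and Ep300), and 1 to 2 on leaving out 1 library, where Atf1 was added without 14-0-0 replicate 5. The count in 14-7-2 was 1 with the length balance (Ep300). In 14-14-0 it was 0 to 1, the 1 being Crtc2 without 14-14-0 replicate 8 (-0.15, p = 0.0448). In 0-0-2 the count of 1 was 0 in a joint fit of the 7 groups, with the replicate block, with the choroid plexus score, with the GC balance, by the regularized formula on FPKM and on log2 values, in cohort 1 alone, in cohort 2 alone, at an unadjusted p under 0.01 and without every library numbered 9, and 0 to 1 on leaving out 1 library. In home cage the count of 0 was 1 with the median ratio, with quantile normalization (Atf1 in both), with the replicate block (Crtc2, p = 0.0322) and with the length balance (Ep300), and 0 to 2 on leaving out 1 library. That count was 2 without sedentary replicate 3 (Atf1 and Crtc2), and 1 without sedentary replicate 7 and without home cage replicates 2 and 4. In 14-7-2 against 0-0-2 it was 1 in cohort 1 alone (Creb1, -0.24, p = 0.0364). The interaction count was 0 as reported and 1 without sedentary replicate 6, and it was 0 without 14-7-0 replicate 4. The causes were not tested. The direction of a called value reversed under 0 alternatives.

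The replicate numbers were not taken to pair the libraries, since not every same-numbered pair correlated over 0.1, though the number carries part of the spread, as given above. Same-numbered libraries of the groups compared had correlations of their deviations from the group means between -0.40 and 0.70, and in no comparison were all 10 over 0.1. The 7 libraries numbered 9 correlated with a median of 0.40, where the medians of the other numbers lay between -0.001 and 0.11. With the replicate block the counts of the 8 genes changed only in 0-0-2 and home cage, as given above, and target genes called lower stayed at 7 in 14-7-2 and rose from 6 to 9 in 14-0-0, from 3 to 6 in 14-7-0, from 4 to 7 in 14-14-0, from 2 to 5 in 0-0-2 and from 1 to 4 in home cage.

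Over the alternatives the count of target genes that fell against sedentary lay between 2 and 9 in 14-0-0, 0 and 6 in 14-7-0, 1 and 8 in 14-7-2, 0 and 9 in 14-14-0, 0 and 5 in 0-0-2 and 0 and 4 in home cage. Between the exercise groups it lay between 0 and 5 in 14-7-2 against 14-7-0, 0 and 3 in 14-7-2 against 0-0-2 and 0 and 3 in 14-0-0 against 14-7-0. Without 14-7-0 replicate 4 it was 5 in 14-7-0 against sedentary, and on leaving out single libraries of 14-14-0 or sedentary it reached 8 in 14-14-0. The added alternatives (without every library numbered 9, and the GC and length balances as covariates) and all those of the target genes were chosen after seeing the data. FPKM do not give the counts behind a value, so the part of counting error in the spread was not measured.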
